A study of Mus musculus with 24 samples.

Results

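Cultured adult mouse astrocytes (AdAC CellC) were compared with directly isolated neonatal mouse astrocytes (neoAC direct) by mRNA sequencing, gene by gene over the autosomes. The comparison takes 8 of the 24 libraries of the series, 4 in each group, and 45108 of the 49671 counted genes lie on autosomes. It addresses whether growing adult astrocytes in a dish brings their transcriptome back towards that of the newborn brain. AdAC CellC were C57BL/6J astrocytes from mice of 100 to 140 days, taken with the Adult Brain Dissociation Kit and with removal of red blood cells and debris, selected with magnetic beads for ACSA-2, an epitope of the sodium pump subunit Atp1b2, and grown for 7 to 10 days in AstroMACS medium on poly-l-lysine and laminin. The neoAC direct group came from cerebral tissue of C57BL/6J pups of 4 to 8 days. After the meninges were taken off, the tissue was dissociated with the Neural Tissue Dissociation Kit. Cells were selected with the same beads and snap-frozen without culture. Cells of 2 mice were pooled for a direct isolation, and sexes were mixed. Directly isolated adult astrocytes (AdAC direct, 4 libraries), prepared with the same adult kit from brains without olfactory bulb and cerebellum and frozen without culture, are given beside the comparison. Age, dissociation kit, the removal of red blood cells and debris, and culture all differ between AdAC CellC and neoAC direct. The study states removal of meninges for the pups only, and of olfactory bulb and cerebellum for direct adult isolation only. The tissue taken may thus differ as well, and the parts of all these in a difference cannot be told apart.

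Astrocytes arise from radial glia, which divide, carry the intermediate filaments vimentin and nestin, and are held in an immature state by Notch signalling. In the first weeks after birth they leave the cell cycle and switch on the transporters and channels with which they clear glutamate, GABA and potassium around synapses. In a dish, astrocytes lose their contact with neurons and vessels and attach to a stiff surface, and after injury or with inflammatory signals they take on a reactive state in which other genes are expressed.

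The 8 libraries held between 30502488 and 37997368 counts. Levels are given in CPM, the counts of a gene relative to all counts of its library after scaling between libraries, as mean ± SD (n = 4), and the values of single libraries follow the order of replicates 1 to 4, which are names only and do not pair libraries. CPM is not divided by gene length, so values are compared between libraries for 1 gene and not between genes. A difference was called where the edgeR quasi-likelihood test, fitted over all 6 groups of the series, gave an adjusted p under 0.05, and log2 fold changes are AdAC CellC minus neoAC direct unless another pair is named. Replicates of the primary astrocyte groups were separate isolations, and those of the stem cell and stem-cell-derived groups were cultures from different passages. The p-values measure differences against the spread between replicates, estimated over all 6 groups. Positions are on GRCm38.

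As a check of the label, the 8 astrocyte markers summed to 903 to 1371 CPM in AdAC CellC and to 19611 to 22823 CPM in neoAC direct, and all 8 were lower in AdAC CellC, where 30.5% of the 18914 autosomal genes tested were lower and 40.4% higher. None of the 8 was at the floor, meaning 3 counts or fewer in every library of a group. Atp1b2, whose product carries the sorted epitope (ENSMUSG00000041329, chromosome 11 from 69599736 to 69605942), was at 96.8, 127, 134 and 135 CPM in AdAC CellC and at 1808, 2006, 1713 and 1911 CPM in neoAC direct, a 15.1-fold lower level (log2 fold change −3.92 with standard error 0.16, adjusted p by edgeR = 4.63e-17). The cultured libraries thus held the markers of the label at a lower level than the neonatal libraries. In these bulk libraries, fewer cells of a type and less RNA per cell cannot be told apart.

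Markers of other cell types moved with the comparison as well. Oligodendrocyte markers, the myelin genes, summed to 3433 CPM in replicate 1 and to 6492 to 8613 CPM in the other 3 AdAC CellC libraries, against 288 to 364 CPM in neoAC direct and 14331 to 14893 CPM in AdAC direct, and 9 of 9 were higher in AdAC CellC. Mbp, which encodes myelin basic protein, had 1822, 3623, 4581 and 3394 CPM in AdAC CellC, 9.36, 13.0, 10.9 and 8.75 CPM in neoAC direct and 4655, 4694, 4762 and 4105 CPM in AdAC direct (AdAC CellC against neoAC direct: log2 fold change 8.32 with standard error 0.41, adjusted p by edgeR = 3.32e-14). Replicate 1 was the lowest cultured library for Mbp, and it still lay above every neonatal library. Of 6 oligodendrocyte precursor markers, Sox10 (mean 157 ± 41.5 against 3.15 ± 2.45 CPM) and Bcas1 (201 ± 54.6 against 3.42 ± 0.962 CPM) were higher and 4 were lower, with sums of 413 to 741 CPM in AdAC CellC and 623 to 938 CPM in neoAC direct. The log2 fold change of Sox10 was 5.61, and 6.35 without neoAC direct replicate 2, its highest neonatal library.

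Fibroblast and meningeal markers summed to 1023 to 1462 CPM in AdAC CellC and 228 to 308 CPM in neoAC direct, with 2 higher, 3 lower and 3 not called of 8. Of all genes tested, 40.4% were higher and 30.5% lower. Epithelial or mesothelial markers summed to 201 CPM in AdAC CellC replicate 3, to 90.2 to 103 CPM in the other 3 and to 3.19 to 5.07 CPM in neoAC direct, with 4 of 5 tested higher and 1 at the floor in both groups. Krt19, a keratin of simple epithelia, had 9.67, 9.62, 15.6 and 10.1 CPM against 0.195, 0.194, 0.0679 and 0.166 CPM, and Msln, a mesothelial surface protein, had 17.1, 15.2, 43.3 and 25.5 CPM against 0.163, 0.0277, 0.170 and 0.266 CPM. Both sums were higher in every cultured library, and replicate 3 was the highest for both genes.

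Markers of neurons summed to 212 to 280 CPM in AdAC CellC and 49.0 to 59.1 CPM in neoAC direct (5 higher, 4 lower, 1 not called of 10). The shares over all genes, 40.4% higher and 30.5% lower, stand beside each count of markers in this paragraph. Higher members included the cytoskeletal genes Tubb3 (144 ± 32.8 against 10.1 ± 1.25 CPM), Nefm (27.3 ± 3.39 against 2.05 ± 0.467 CPM) and Nefl (9.23 ± 1.59 against 0.824 ± 0.231 CPM). Rbfox3, a nuclear protein of mature neurons, was lower (0.265 ± 0.0997 against 2.06 ± 0.483 CPM, log2 fold change −2.95 with standard error 0.33, adjusted p by edgeR = 1.34e-08). Members not named here, higher ones among them, also entered the sum. Microglia markers summed to 83.6 to 113 CPM in AdAC CellC (8 higher, 3 lower, 1 not called of 12). In neoAC direct they summed to 117 CPM in replicate 2 and to 35.3 to 55.6 CPM in its other 3 libraries. Neuroblast markers summed to 120 to 172 CPM in AdAC CellC and 52.8 to 70.8 CPM in neoAC direct (2 higher, 2 lower, 1 not called of 5). Endothelial markers summed to 87.8 to 105 CPM in AdAC CellC, to 444 CPM in neoAC direct replicate 2 and to 113 to 177 CPM in its other 3 libraries (0 higher, 7 lower, 2 not called of 9). Without that library 4 endothelial markers and 1 microglia marker were lower. Mural markers were lower in sum in AdAC CellC (144 to 194 CPM) than in neoAC direct (709 to 1158 CPM), with 5 of 6 lower. Of 5 choroid plexus markers 2 were higher and 3 lower, and of 6 ependymal markers 3 were higher and 1 lower, but 2 and 2 without AdAC CellC replicate 2 or without neoAC direct replicate 3. All 4 globin genes used as erythroid markers were at the floor in AdAC CellC and summed to 8.29 to 66.3 CPM in neoAC direct, highest in replicate 2, and only the adult protocol had a step to remove red blood cells. The part of these cell types in the gene results below was not tested.

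**Figure D1:**
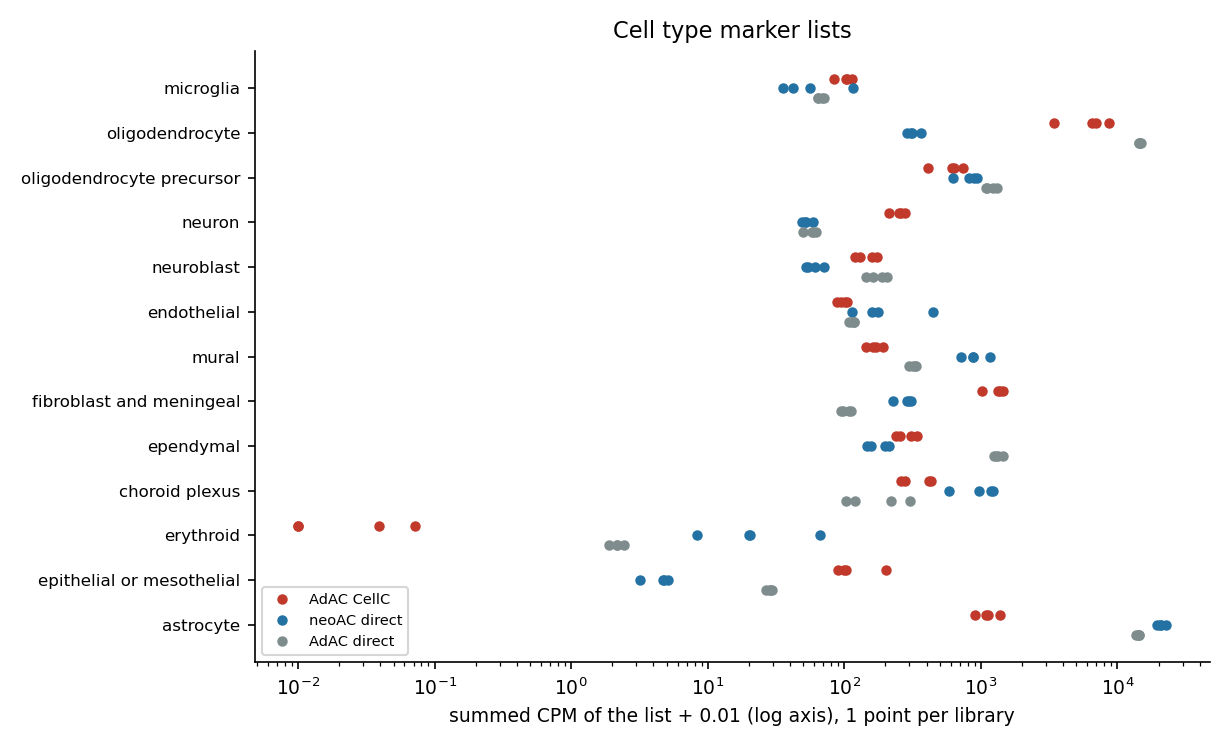
Summed CPM of each cell type marker list (plus 0.01, log axis), 1 point for each library of AdAC CellC, neoAC direct and AdAC direct. Astrocyte markers lie between 903 and 1371 CPM in AdAC CellC and between 19611 and 22823 CPM in neoAC direct, while oligodendrocyte markers lie between 3433 and 8613 CPM in AdAC CellC and between 288 and 364 CPM in neoAC direct.

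Most autosomal genes differed. Of 18914 tested, 7634 (40.4%) were higher and 5776 (30.5%) lower in AdAC CellC than in neoAC direct, so 70.9% were called. In 65.4% the libraries of the groups did not overlap. The median log2 fold change of all tested genes was 0.16, and list medians below are given relative to it. Side by side, 38.7% of genes were higher and 39.4% lower in AdAC CellC than in AdAC direct (78.2% called, 76.5% without overlap). Between AdAC direct and neoAC direct, 36.8% were higher and 34.7% lower in the adult cells (71.5% called), and 65.0% did not overlap. These comparisons share libraries with the first, so their counts are set beside it without a test. When the change also had to pass 1 on the log2 scale, 4220 genes were higher and 3186 lower.

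Distances between libraries describe the same data without calls. On regularized log (rlog) counts of the 18914 genes, AdAC CellC lay 194.2 ± 2.91 (Euclidean distance, mean ± SD over 16 pairs of libraries) from neoAC direct and 210.9 ± 3.81 from AdAC direct. The ratio of these distances was 0.921, and in the 4 cultured libraries it was 0.909, 0.939, 0.928 and 0.908. AdAC direct lay 184.6 ± 5.39 from neoAC direct, and the ratio of the first distance to this one was 1.05, with ranges over pairs that overlapped (188.8 to 199.2 and 176.9 to 196.8). Pairs share libraries, so the SD describes these pairs and no test was made. Cultured neonatal astrocytes (neoAC CellC) lay 153.4 ± 6.57 from AdAC CellC, 158.8 ± 3.75 from neoAC direct and 189.8 ± 2.25 from AdAC direct. Cultured cells of both ages thus lay nearer to neoAC direct than to AdAC direct, so this order was not particular to adult culture. Libraries of 1 group lay 44.6 to 56.7 apart on average. With only the 500 genes of highest variance, the distance to neoAC direct (74.19 ± 1.24) was no longer below that to AdAC direct (73.68 ± 1.07), and the ratio was 1.01.

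**Figure D2:**
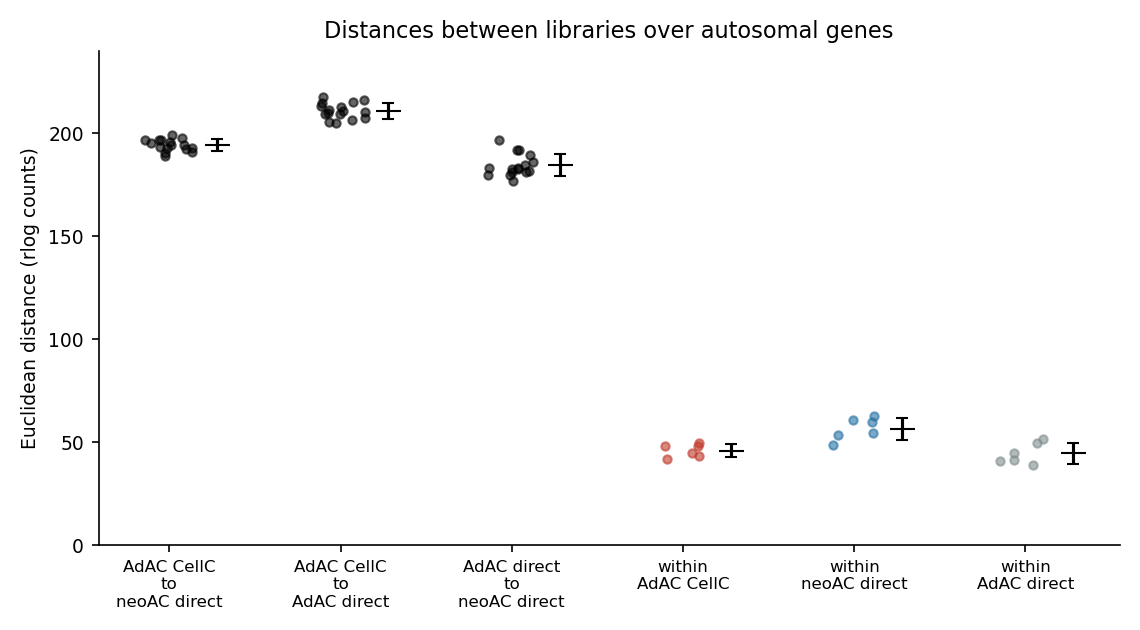
Euclidean distances on rlog counts between libraries of the named groups (points are pairs of libraries, with mean and SD). The 16 distances of AdAC CellC to neoAC direct lie between 188.8 and 199.2, those to AdAC direct between 205.1 and 217.8, and those of AdAC direct to neoAC direct between 176.9 and 196.8.

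Gene lists named for functions of astrocytes split in both directions. Relative to the median of all genes, the lists with the lowest median log2 fold changes were homeostatic astrocyte genes (−4.36), brain matrix genes (−2.65), astroglial transcription factors (−2.07) and immature astrocyte and radial glia genes (−1.60). Fibrillar matrix, adhesion and contractile genes (3.48), pan-reactive genes (2.52) and A2 reactive genes (2.48) had the highest. The medians of glycolysis genes (0.20) and motile cilium genes (0.06) lay near that of all genes.

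**Figure D3:**
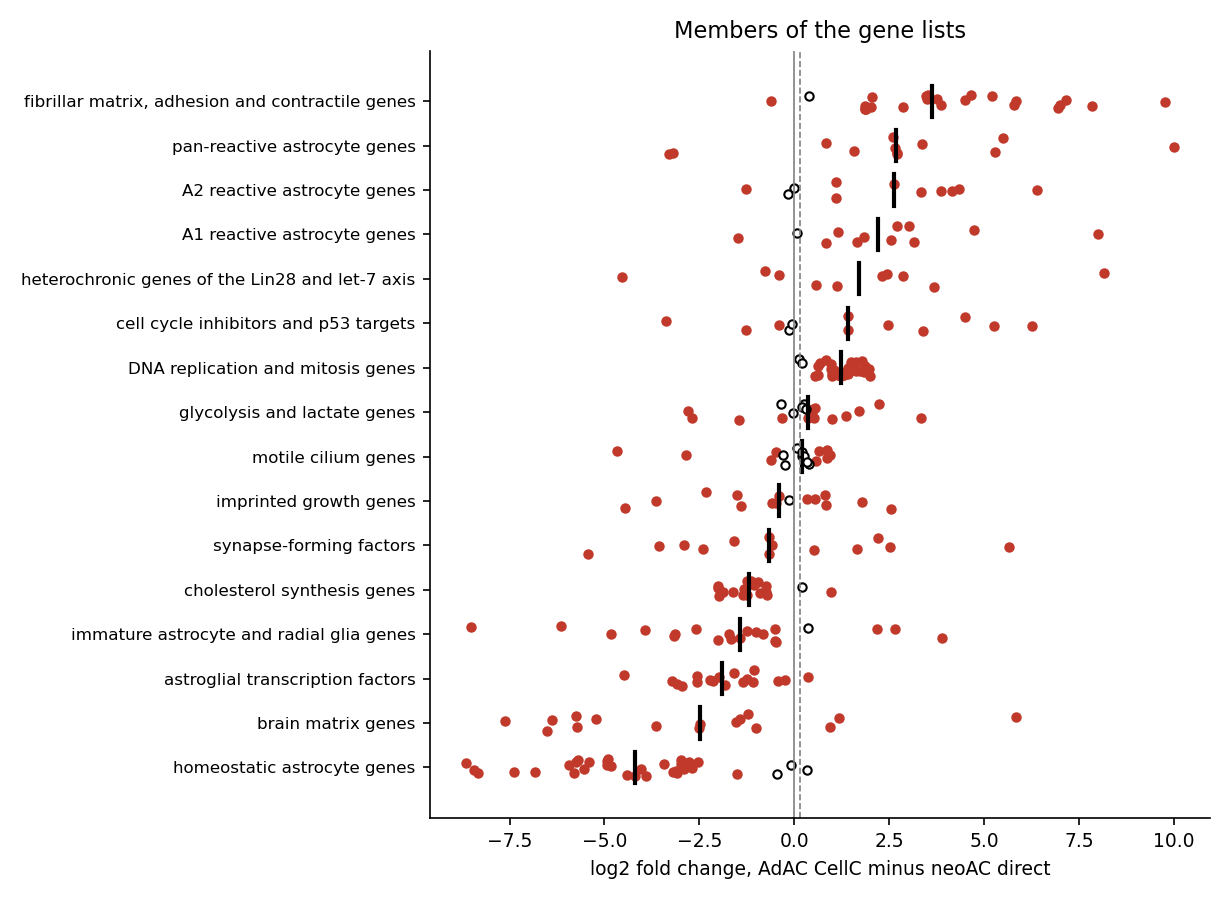
Log2 fold changes of the members of each functional list between AdAC CellC and neoAC direct, with the list's median as a bar and the median of all 18914 genes as a dashed line (filled points were called, open points were not). Of the homeostatic astrocyte genes 30 of 33 are filled and below the line, and 22 of the 24 fibrillar matrix, adhesion and contractile genes were called higher.

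Homeostatic astrocyte genes, which encode the transporters, channels, gap junction proteins and enzymes of mature astrocytes, were lower in the cultured adult cells in 30 of 33 cases, and none was higher. Slc1a2, the glutamate transporter GLT-1 (ENSMUSG00000005089, chromosome 2 from 102658659 to 102790784), had 49.3, 52.3, 45.8 and 52.4 CPM in AdAC CellC and 5455, 5838, 4934 and 6488 CPM in neoAC direct. The lowest neonatal library was thus far above the highest cultured library, a 114-fold lower mean (log2 fold change −6.83 with standard error 0.22, adjusted p by edgeR = 6.84e-19). Slc6a11, the GABA transporter GAT-3 (ENSMUSG00000030307, chromosome 6 from 114131241 to 114249952), had 8.56, 9.44, 9.46 and 14.7 CPM in AdAC CellC and 4235, 4819.5, 4373 and 3560.2 CPM in neoAC direct (log2 fold change −8.65 with standard error 0.22, adjusted p by edgeR = 1.98e-20). Slc7a10, a transporter of small neutral amino acids, fell to 1.504, 0.991, 0.956 and 0.745 CPM from 314, 402, 332 and 293 CPM, and Cldn10, a claudin of astrocytes, to 0.491, 0.175, 0.345 and 0.559 CPM from 122, 139, 127 and 159.5 CPM. Their levels were lower by 319 and 349 times, and no library overlapped.

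Agt, the precursor of angiotensin, was 166-fold lower, at 2.24, 1.60, 1.65 and 1.61 CPM against 293, 339.5, 285 and 259 CPM. Slc1a3, the glutamate transporter GLAST, had 163, 210.2, 216 and 286 CPM against 6559.9, 6229, 6727 and 7372 CPM (log2 fold change −4.94 with standard error 0.16, adjusted p by edgeR = 4.34e-19). AdAC direct held far more of these RNAs than AdAC CellC, with 6102 ± 132 CPM for Slc1a2, 1994 ± 202 CPM for Slc6a11 and 442 ± 56.7 CPM for Agt. Against AdAC direct, all 33 genes of the list were lower in AdAC CellC, beside 39.4% of all genes. Between AdAC direct and neoAC direct 11 were higher and 12 lower, beside 36.8% higher and 34.7% lower of all genes. Aldh1l1, a folate enzyme used as a marker of the whole lineage, had 179.8 ± 41.9 CPM in AdAC CellC, 1228 ± 174 CPM in neoAC direct and 273 ± 23.8 CPM in AdAC direct, so its adult level without culture was already below the neonatal level (log2 fold change −2.17, edgeR adjusted p = 1.05e-07).

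The 3 members that were not called were S100b, Htra1 and F3. S100b, a calcium-binding protein, had 49.4, 63.3, 58.1 and 60.7 CPM in AdAC CellC and 70.3, 95.01, 73.4 and 77.0 CPM in neoAC direct (95% confidence interval of the log2 fold change −0.88 to −0.02, edgeR adjusted p = 0.0571). Htra1, a secreted protease, had 554 ± 42.7 and 588 ± 52.3 CPM (interval −0.39 to 0.22), and F3, tissue factor, 150.2 ± 11.5 and 119 ± 12.1 CPM (interval 0.00 to 0.67). All 3 were higher in AdAC direct, at 259 ± 12.1, 1435 ± 134 and 377 ± 26.6 CPM, and lower in AdAC CellC than there. S100b passed the threshold as lower under 5 of the alternatives, with a log2 fold change of −0.54 with DESeq2.

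Astroglial transcription factors, which set and keep the identity of the lineage, were lower in 17 of 18 cases. Id2, an inhibitor of basic helix-loop-helix factors, had 14.7, 21.0, 18.3 and 22.8 CPM in AdAC CellC and 428, 408, 410.0 and 466 CPM in neoAC direct (log2 fold change −4.48 with standard error 0.17, adjusted p by edgeR = 1.06e-17). Id3, of the same family, was 9.31-fold lower (67.4 ± 13.3 against 627 ± 98.2 CPM), Rfx4 was 8.48-fold lower (19.3 ± 4.12 against 164 ± 7.68 CPM) and Npas3 7.76-fold lower (22.3 ± 1.77 against 173 ± 13.7 CPM). Id3 was already low in AdAC direct (80.7 ± 12.1 CPM) and not called between AdAC CellC and AdAC direct (log2 fold change −0.26, edgeR adjusted p = 0.11). Nfix, a nuclear factor I gene of glial differentiation, was close in the groups at 396, 432, 433 and 458 CPM and 540.5, 533, 554 and 404 CPM (log2 fold change −0.24 with standard error 0.09, adjusted p by edgeR = 0.0249), and its call was lost without AdAC CellC replicate 1 or without neoAC direct replicates 1, 2 or 3 (adjusted p 0.0659 to 0.0866) and with scaling by library size alone. Zbtb20, a zinc finger factor of astrocyte formation, was the member that was higher (354 ± 27.6 against 278 ± 51.7 CPM, log2 fold change 0.35 with standard error 0.15, adjusted p by edgeR = 0.0335), a call lost under 8 alternatives, among them DESeq2 and leaving out AdAC CellC replicate 1, neoAC direct replicate 2 or replicate 3 (adjusted p 0.100 to 0.116).

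Brain matrix genes encode the chondroitin sulfate proteoglycans, link proteins and hyaluronan synthases that fill the space between neural cells. Of 16 tested, 13 were lower and 3 higher in AdAC CellC. Ncan, neurocan (chromosome 8 from 70093085 to 70120873), had 175, 237, 251 and 339 CPM in AdAC CellC and 9730.5, 9671, 10139 and 7716 CPM in neoAC direct (log2 fold change −5.22 with standard error 0.19, adjusted p by edgeR = 6.81e-18). Ptprz1, a receptor phosphatase that also yields the proteoglycan phosphacan, had 181, 209, 187 and 239 CPM against 10740.5, 9691, 10108 and 12626 CPM. Both were also low in AdAC direct, at 406 ± 55.2 and 918 ± 59.7 CPM, while Bcan, brevican, and Hapln1, a link protein, were not. Bcan had 45.5 ± 8.73, 3798 ± 636 and 2569 ± 351 CPM in AdAC CellC, neoAC direct and AdAC direct, and Hapln1 had 0.577 ± 0.209, 115 ± 26.3 and 62.9 ± 4.44 CPM. Cspg5, neuroglycan C, was 91.7-fold lower than in neoAC direct.

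The 3 brain matrix genes that were higher were Hapln2, Sparc and Has3. Hapln2, a link protein of nodes of Ranvier, had 14.0, 28.4, 30.6 and 26.0 CPM against 0.293, 0.388, 0.544 and 0.499 CPM, with 459.9 ± 18.1 CPM in AdAC direct. Its replicate 1 was the lowest of the cultured libraries, as for the myelin genes above. Sparc, a secreted matrix glycoprotein, had 3944, 3659, 3696 and 3797 CPM against 1609.6, 2025, 1537 and 1463 CPM (log2 fold change 1.19 with standard error 0.16, adjusted p by edgeR = 2.10e-07). Has3, a hyaluronan synthase, was low in both groups (0.735 ± 0.159 against 0.375 ± 0.106 CPM), and its call was lost without neoAC direct replicate 3 (adjusted p = 0.0515).

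Most immature astrocyte and radial glia genes stayed below their neonatal levels in the cultured adult cells. Of 21 tested, 17 were lower in AdAC CellC than in neoAC direct, 3 were higher and 1 was not called. Of all genes, 30.5% were lower and 40.4% higher in this comparison. Against AdAC direct 11 were higher and 8 lower in AdAC CellC, beside 38.7% and 39.4% of all genes. All 21 were lower in AdAC direct than in neoAC direct, beside 34.7% of all genes. Fabp7, the brain lipid-binding protein of radial glia (ENSMUSG00000019874, chromosome 10 from 57784881 to 57788450), had 262, 381, 359 and 533 CPM in AdAC CellC, 6009, 5086, 6686 and 5815 CPM in neoAC direct and 79.7, 70.9, 71.9 and 103 CPM in AdAC direct. Cultured libraries thus lay above all uncultured adult libraries (log2 fold change 2.24, edgeR adjusted p = 6.22e-10) and below all neonatal libraries (log2 fold change −3.94, edgeR adjusted p = 7.60e-14). Tnc, tenascin C (ENSMUSG00000028364, chromosome 4 from 63959785 to 64047015), came closer, with 1153, 1161, 1425 and 1446 CPM in AdAC CellC, 2813, 2104, 3225 and 2189 CPM in neoAC direct and 11.1, 12.3, 12.5 and 12.2 CPM in AdAC direct. It was 108-fold higher in AdAC CellC than in AdAC direct and 1.99-fold lower than in neoAC direct (log2 fold change −0.99 with standard error 0.23, adjusted p by edgeR = 5.22e-04). Ptn, the growth factor pleiotrophin, went the other way from both, at 172 ± 29.9 CPM against 4863 ± 435 CPM in neoAC direct and 768 ± 54.5 CPM in AdAC direct.

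Vim, Nes and Ccnd1 were higher than in neoAC direct. Vim, vimentin (ENSMUSG00000026728, chromosome 2 from 13573927 to 13582826), had 4344, 4305, 3807 and 4602 CPM in AdAC CellC, 706, 634, 730.4 and 621 CPM in neoAC direct and 348, 312, 314 and 325 CPM in AdAC direct (log2 fold change 2.66 with standard error 0.15, adjusted p by edgeR = 1.76e-14 against neoAC direct). Nes, nestin, had 1287, 1223, 1206 and 1331 CPM against 301, 227, 348 and 231 CPM. Ccnd1, cyclin D1 (chromosome 7 from 144929931 to 144939925), had 1794, 1844, 1686 and 1897 CPM against 115, 129, 129 and 114 CPM (log2 fold change 3.89 with standard error 0.39, adjusted p by edgeR = 9.68e-09). All 3 lay above the neonatal range in every cultured library, and 23.4% of the exon bases of Ccnd1 are shared with a gene on the opposite strand. Ccnd2, cyclin D2, was not called (911 ± 29.7 against 707 ± 114 CPM, interval of the log2 fold change 0.02 to 0.71, edgeR adjusted p = 0.0581), and passed as higher without neoAC direct replicate 3 (adjusted p = 0.0233).

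Of list members without overlap and with a higher mean of at least 10 CPM, Hes5 and Nrarp were the lowest. Both are targets of Notch. Hes5, the repressor that Notch switches on in neural progenitors (ENSMUSG00000048001, chromosome 4 from 154960923 to 154962371, plus strand), had 0.890, 0.991, 1.94 and 1.71 CPM in AdAC CellC and 569, 550.4, 612 and 308 CPM in neoAC direct, a 366-fold lower mean (log2 fold change −8.51 with standard error 0.37, adjusted p by edgeR = 3.07e-15). AdAC direct held 103, 122, 91.1 and 66.5 CPM, so the cultured adult cells were below the uncultured adult cells too. Nrarp, a feedback inhibitor and target of Notch, was 71.3-fold lower, at 4.45, 4.78, 6.16 and 7.54 CPM against 397, 438, 469 and 332 CPM. Exon bases shared with a gene on the opposite strand make up 31.8% of Hes5 and 79.4% of Nrarp, and strand use in the counting is not stated, so these levels are uncertain. The RefSeq promoter of Hes5 is shown because Notch acts through the factor RBPJ, whose core motif TGGGAA (searched on both strands) starts 226 and 82 bases before the transcript start.
The 250 bases before the start of Hes5 lie at chr4:154960673-154960922 of GRCm38.p6, plus strand, with both matches in capitals.
Hes5: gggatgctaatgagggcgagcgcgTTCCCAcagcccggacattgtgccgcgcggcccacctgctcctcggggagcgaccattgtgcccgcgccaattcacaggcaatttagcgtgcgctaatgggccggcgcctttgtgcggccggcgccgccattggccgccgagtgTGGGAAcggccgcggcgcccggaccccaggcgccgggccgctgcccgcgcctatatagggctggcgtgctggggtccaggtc
A match to TGGGAA was found in this window in 24.2% of the 25748 autosomal genes with a promoter in RefSeq. It was found in 7 of the 16 immature astrocyte genes with one (43.8%). Over the functional lists the share ran from 0.0% (heterochronic genes) to 53.8% (imprinted growth genes), so it was not particular to this list. A match describes letters in the window and no binding.

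The heterochronic genes of the Lin28 and let-7 axis time development in many tissues. They were higher in 7 of 10 cases and lower in 3, beside 40.4% higher and 30.5% lower of all genes. Lin28a and Lin28b were too low to be tested. Hmga2, a chromatin protein of fetal progenitors that let-7 represses (ENSMUSG00000056758, chromosome 10 from 120361275 to 120476469), had 97.9, 77.1, 88.5 and 84.3 CPM in AdAC CellC and 0.195, 0.222, 0.544 and 0.266 CPM in neoAC direct (log2 fold change 8.15 with standard error 0.46, adjusted p by edgeR = 2.48e-13). It was at the floor in AdAC direct. Its level in culture was above that of the neonatal cells in every library, 285-fold on average. Hmga1 (341, 291, 307 and 317 against 24.7, 27.4, 26.9 and 18.0 CPM) and the RNA-binding protein gene Igf2bp2 (23.9, 20.6, 26.3 and 24.9 against 5.23, 4.46, 5.37 and 4.29 CPM) were higher too. Plagl2 was 1.496-fold higher, and Igf2bp1, at 5.34, 3.91, 2.05 and 1.92 CPM against 1.53, 1.27, 1.60 and 1.70 CPM, 2.17-fold.

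The 3 that were lower were Igf2bp3, Arid3b and Mycn. Igf2bp3, also an RNA-binding protein of fetal tissue, had 0.767, 0.525, 0.611 and 0.403 CPM in AdAC CellC, 14.6, 11.96, 15.5 and 11.7 CPM in neoAC direct and 0.355, 0.340, 0.208 and 0.367 CPM in AdAC direct (log2 fold change −4.53 with standard error 0.39, adjusted p by edgeR = 1.78e-10 against neoAC direct). AdAC CellC and AdAC direct were not called apart for this gene (log2 fold change 0.86, edgeR adjusted p = 0.125), so the 3 Igf2bp genes showed different patterns. Arid3b had 2.60 ± 0.220 against 4.42 ± 0.600 CPM, and Mycn 3.84 ± 0.710 against 5.01 ± 1.01 CPM, a difference (edgeR adjusted p = 0.0491) that was lost when any of 5 libraries was left out, AdAC CellC replicates 1, 2 or 3 or neoAC direct replicates 1 or 2 (adjusted p 0.109 to 0.156).

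Imprinted growth genes, many of which are shut down in the weeks after birth, split into 6 higher, 8 lower and 1 not called of 15, beside 40.4% higher and 30.5% lower of all genes. Igf2, insulin-like growth factor 2 (chromosome 7 from 142650766 to 142666816), had 49.7, 64.7, 41.1 and 41.9 CPM in AdAC CellC, 266, 265, 171 and 279 CPM in neoAC direct and 31.6, 22.5, 20.9 and 35.2 CPM in AdAC direct (log2 fold change −2.31 with standard error 0.24, adjusted p by edgeR = 8.94e-09 against neoAC direct), and 62.8% of its exon bases are shared with another gene model on the same strand. Nnat, neuronatin, had 23.2, 25.2, 25.02 and 28.4 CPM against 563, 598, 587 and 474 CPM, with 903 ± 60.2 CPM in AdAC direct. These 2 genes were lower than in the neonatal cells, with Igf2 above and Nnat below the uncultured adult level. Ndn (94.7 ± 10.4 against 143 ± 33.2 CPM) and Peg3 (76.7 ± 5.56 against 107 ± 10.04 CPM) were lower by 1.51 and 1.40 times, and the call on Peg3 was lost with scaling by library size alone (adjusted p = 0.0661).

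Grb10, an adaptor that restrains insulin signalling, had 252, 190.0, 198 and 168 CPM against 37.8, 33.4, 33.9 and 31.7 CPM in neoAC direct and 4.41 ± 1.14 CPM in AdAC direct (log2 fold change 2.56 with standard error 0.16, adjusted p by edgeR = 5.23e-13 against neoAC direct). Igf2r, the receptor that clears Igf2, was 3.46-fold higher (291 ± 14.6 against 84.0 ± 6.93 CPM). Mest (184 ± 19.8 against 105 ± 9.90 CPM, with 23.1% of its exon bases shared with a gene on the opposite strand) and Plagl1 (60.7 ± 5.19 against 41.3 ± 2.11 CPM) were higher by 1.75 and 1.47 times. Gnas, which encodes a G protein subunit, was not called (972 ± 28.3 against 1065 ± 85.8 CPM, interval −0.28 to 0.02). It passed as lower under several alternatives, as without neoAC direct replicate 4 (log2 fold change −0.18, adjusted p = 0.0305), and was at 0.02 with scaling by library size alone.

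DNA replication and mitosis genes were higher in the cultured adult cells than in the neonatal cells. Of 32 tested, 30 were higher, none was lower and 2, Gins1 and Kif11, were not called, and the median was 1.08 above that of all genes. Against AdAC direct all 32 were higher, and all 32 were lower in AdAC direct than in neoAC direct. Mki67, which encodes the Ki-67 antigen of cycling cells (ENSMUSG00000031004, chromosome 7 from 135689784 to 135716361), had 261, 224, 234 and 288 CPM in AdAC CellC, 149, 87.1, 142 and 127 CPM in neoAC direct and 3.80, 3.52, 4.28 and 4.94 CPM in AdAC direct. Cultured libraries were thus the highest and uncultured adult libraries the lowest, with no overlap (log2 fold change 0.99 with standard error 0.15, adjusted p by edgeR = 1.73e-06 against neoAC direct). Top2a, topoisomerase II alpha, had 251, 247, 241 and 295 CPM against 153, 94.1, 147 and 136 CPM and 4.05 ± 0.299 CPM in AdAC direct.

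Birc5, survivin, which guards chromosome separation, had 52.4, 47.0, 50.2 and 60.1 CPM in AdAC CellC and 14.9, 9.55, 16.2 and 12.1 CPM in neoAC direct (log2 fold change 1.99 with standard error 0.15, adjusted p by edgeR = 8.66e-12). Aurka, a kinase of the spindle poles, was 3.91-fold higher (45.4 ± 5.14 against 11.7 ± 2.55 CPM). The replication genes Tyms, thymidylate synthase (39.4 ± 2.69 against 10.8 ± 2.08 CPM), and Cdc6, which licenses origins (19.7 ± 1.61 against 5.46 ± 0.620 CPM), were 3.65- and 3.61-fold higher. Gins1, of the replicative helicase, had 7.25 ± 0.625 and 6.63 ± 0.795 CPM (interval −0.19 to 0.45), and Kif11, a spindle motor, 67.5 ± 6.58 and 58.5 ± 13.6 CPM (interval −0.09 to 0.51).
Promoters of mitotic genes often hold CCAAT boxes, bound by the factor NF-Y, and those of Top2a and Aurka are shown for this reason, with every CCAAT (both strands) in capitals.
Top2a, chr11:99024190-99024439, minus strand: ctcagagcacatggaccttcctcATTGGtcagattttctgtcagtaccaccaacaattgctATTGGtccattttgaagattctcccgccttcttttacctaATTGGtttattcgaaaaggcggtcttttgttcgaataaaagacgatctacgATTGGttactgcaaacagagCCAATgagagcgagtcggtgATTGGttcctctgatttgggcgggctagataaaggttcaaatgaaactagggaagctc
Aurka, chr2:172370571-172370820, minus strand: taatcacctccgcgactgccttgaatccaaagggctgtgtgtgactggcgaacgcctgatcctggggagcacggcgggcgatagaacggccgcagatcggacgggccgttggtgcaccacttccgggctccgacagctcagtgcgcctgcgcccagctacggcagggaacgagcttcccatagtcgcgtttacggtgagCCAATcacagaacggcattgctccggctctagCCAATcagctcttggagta
Top2a held 6 and Aurka 2 matches in the 250 bases before the start. CCAAT was found in 23 of the 27 list members with a RefSeq promoter (85.2%), against 39.5% of the 12648 tested genes and 37.4% of all autosomal genes with one. Over the functional lists the CCAAT share ran from 21.4% (motile cilium) to 100.0% (cholesterol synthesis). It was 75.0% in immature astrocyte genes, so it was not particular to this list. The motif TTTGAA, of the cell cycle homology region, was found in 8 of the 27 and in 13.1% of the tested genes. It was also found in 4 of 13 imprinted growth genes with a promoter.

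Cell cycle inhibitors and p53 targets went in both directions. Of 12 tested, 7 were higher and 3 lower than in neoAC direct, beside 40.4% higher and 30.5% lower of all genes. Against AdAC direct 11 were higher, beside 38.7% of all genes. Cdkn1a, the p53 target p21 (ENSMUSG00000023067, chromosome 17 from 29090976 to 29100727), had 741, 723, 726 and 619 CPM in AdAC CellC, 19.2, 24.4, 14.9 and 14.3 CPM in neoAC direct and 23.03, 16.6, 18.2 and 20.1 CPM in AdAC direct (log2 fold change 5.27 with standard error 0.23, adjusted p by edgeR = 1.70e-15 against neoAC direct). The uncultured groups overlapped, and the cultured libraries lay 38.5-fold above the neonatal mean. Cdkn2a, which encodes p16 and p19Arf, had 18.1, 17.3, 20.5 and 18.1 CPM against 0.163, 0.388, 0.170 and 0.200 CPM (log2 fold change 6.27 with standard error 0.20, adjusted p by edgeR = 7.56e-19), and its neighbour Cdkn2b, p15, 38.6, 35.1, 38.5 and 36.6 CPM against 1.53, 2.58, 1.46 and 0.898 CPM. Ccng1, cyclin G1, a p53 target, was 10.4-fold higher (618 ± 40.9 against 59.1 ± 8.73 CPM).

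Btg2, an antiproliferative gene that p53 also induces, was lower, at 81.1, 70.8, 81.0 and 68.8 CPM in AdAC CellC and 915, 747, 691 and 789 CPM in neoAC direct (log2 fold change −3.38 with standard error 0.14, adjusted p by edgeR = 1.08e-16), and 1.498-fold higher than in AdAC direct (50.3 ± 7.99 CPM, log2 fold change 0.58, edgeR adjusted p = 2.99e-04). Cdkn1b, p27, was 2.40-fold lower (61.0 ± 2.97 against 146 ± 7.35 CPM). Cdkn1c, p57, was 1.32-fold lower with an adjusted p of 0.0487 in edgeR, which was over 0.05 when any of 6 libraries was left out, AdAC CellC replicates 1, 2 or 4 or neoAC direct replicates 1, 2 or 3 (0.0617 to 0.176). Cdkn2c and Cdkn2d were not called, with intervals of −0.41 to 0.16 and −0.31 to 0.21.

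Reactive genes, which astrocytes switch on after injury or inflammation, were mostly higher in the cultured adult cells. Of the pan-reactive list, 10 of 12 were higher and 2, Gfap and Aspg, lower. Lcn2, lipocalin 2, an iron carrier-binding protein (ENSMUSG00000026822, chromosome 2 from 32384633 to 32388252), had 309, 526, 493 and 388 CPM in AdAC CellC, 0.390, 0.443, 0.442 and 0.366 CPM in neoAC direct and 0.390, 0.463, 0.178 and 0.226 CPM in AdAC direct (log2 fold change 10.01 with standard error 1.05, adjusted p by edgeR = 4.56e-08 against neoAC direct). Both uncultured groups were below 1 CPM, and the cultured mean was 1033-fold the neonatal one. Steap4, a metalloreductase, had 22.2, 42.0, 33.6 and 35.1 CPM against 0.618, 1.30, 0.238 and 0.665 CPM, and Cp, the copper protein ceruloplasmin, 496, 594, 490.2 and 541 CPM against 14.5, 11.2, 9.38 and 18.8 CPM. Hspb1, a small heat shock protein, was 10.4-fold higher, and Serpina3n, a serpin with close paralogs, had 349, 555, 692 and 524 CPM against 93.9, 88.0, 82.2 and 86.8 CPM (log2 fold change 2.59 with standard error 0.43, adjusted p by edgeR = 1.54e-05).

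Gfap, the intermediate filament of astrocytes (ENSMUSG00000020932, chromosome 11 from 102887336 to 102900912), went against the rest of its list. It had 126, 200.5, 171 and 259.9 CPM in AdAC CellC, 1866, 1727, 1546 and 1749 CPM in neoAC direct and 170.5, 175, 162 and 161 CPM in AdAC direct, a 9.10-fold lower level than in neoAC direct (log2 fold change −3.19 with standard error 0.15, adjusted p by edgeR = 9.44e-16). AdAC CellC and AdAC direct overlapped and were not called apart (log2 fold change 0.18, edgeR adjusted p = 0.239). Aspg, an asparaginase, was 9.77-fold lower (0.477 ± 0.146 against 4.73 ± 0.480 CPM).

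Of the A1 list, defined after inflammatory stimulation, 10 of 12 genes were higher, Srgn was lower and Amigo2 was not called. C3, the central complement component (ENSMUSG00000024164, chromosome 17 from 57203970 to 57228136), had 249, 455, 322 and 308 CPM in AdAC CellC, 1.17, 1.30, 1.43 and 1.26 CPM in neoAC direct and 37.7, 40.1, 43.7 and 35.01 CPM in AdAC direct (log2 fold change 8.01 with standard error 0.39, adjusted p by edgeR = 1.67e-14 against neoAC direct). The uncultured adult cells were thus between the others. Fbln5, an elastic fibre protein, had 243, 257, 269.7 and 258 CPM against 8.84, 12.7, 7.27 and 9.91 CPM, and Fkbp5, a glucocorticoid-induced chaperone partner, 76.8, 69.2, 74.8 and 85.3 CPM against 10.5, 6.67, 7.98 and 9.05 CPM. H2-D1, a class I histocompatibility gene with close paralogs, was 6.49-fold higher. Srgn, a proteoglycan of blood cells, had 1.10 ± 0.255 against 3.03 ± 1.38 CPM, and Amigo2 9.53 ± 1.03 against 9.08 ± 0.933 CPM (interval −0.21 to 0.34).

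Of the A2 list, defined after ischaemia, 8 of 11 genes were higher, Cd14 was lower and Ptx3 and B3gnt5 were not called. Clcf1, a cytokine that signals through gp130, had 78.3, 82.4, 79.7 and 90.3 CPM in AdAC CellC and 0.943, 1.16, 0.713 and 1.06 CPM in neoAC direct (log2 fold change 6.40 with standard error 0.38, adjusted p by edgeR = 6.60e-13). S100a10, the partner of annexin A2, had 213, 162, 176 and 176 CPM against 9.33, 8.31, 7.00 and 11.4 CPM, Cd109 121, 153, 107 and 166 CPM against 7.90, 6.34, 6.52 and 10.01 CPM, and Tgm1, a transglutaminase, 8.01, 17.7, 13.3 and 14.8 CPM against 0.780, 1.05, 1.05 and 0.765 CPM. All 4 were chosen among genes whose libraries did not overlap, as in 65.4% of all genes. Tm4sf1 and Emp1 were 10.1- and 2.13-fold higher. Ptx3, a pentraxin, had 40.0, 57.5, 41.5 and 51.8 CPM in AdAC CellC, 54.8, 40.8, 49.5 and 47.1 CPM in neoAC direct and 0.390, 0.865, 0.594 and 0.592 CPM in AdAC direct, and its log2 fold change against neoAC direct had an interval of −0.37 to 0.35. B3gnt5, a glycosyltransferase, was likewise near 0.5 CPM in AdAC direct (0.501 ± 0.148) and overlapped between AdAC CellC (19.5 ± 2.69 CPM) and neoAC direct (21.8 ± 5.55 CPM, interval −0.49 to 0.17). Cd14, a receptor for lipopolysaccharide, was 2.41-fold lower than in neoAC direct.

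Of the other genes that the study names for RNA or protein, Mx1, an interferon-induced GTPase, had 2.30, 0.291, 0.0797 and 0.155 CPM in AdAC CellC and 0.0975, 0.138, 0.136 and 0.200 CPM in neoAC direct. Only replicate 1 of AdAC CellC stood out. The log2 fold change of 2.26 (edgeR adjusted p = 0.0251) became 0.28 without that library (adjusted p = 0.77), and the call was also lost without neoAC direct replicates 1, 2 or 3 (adjusted p 0.0520 to 0.0586).

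**Figure D4:**
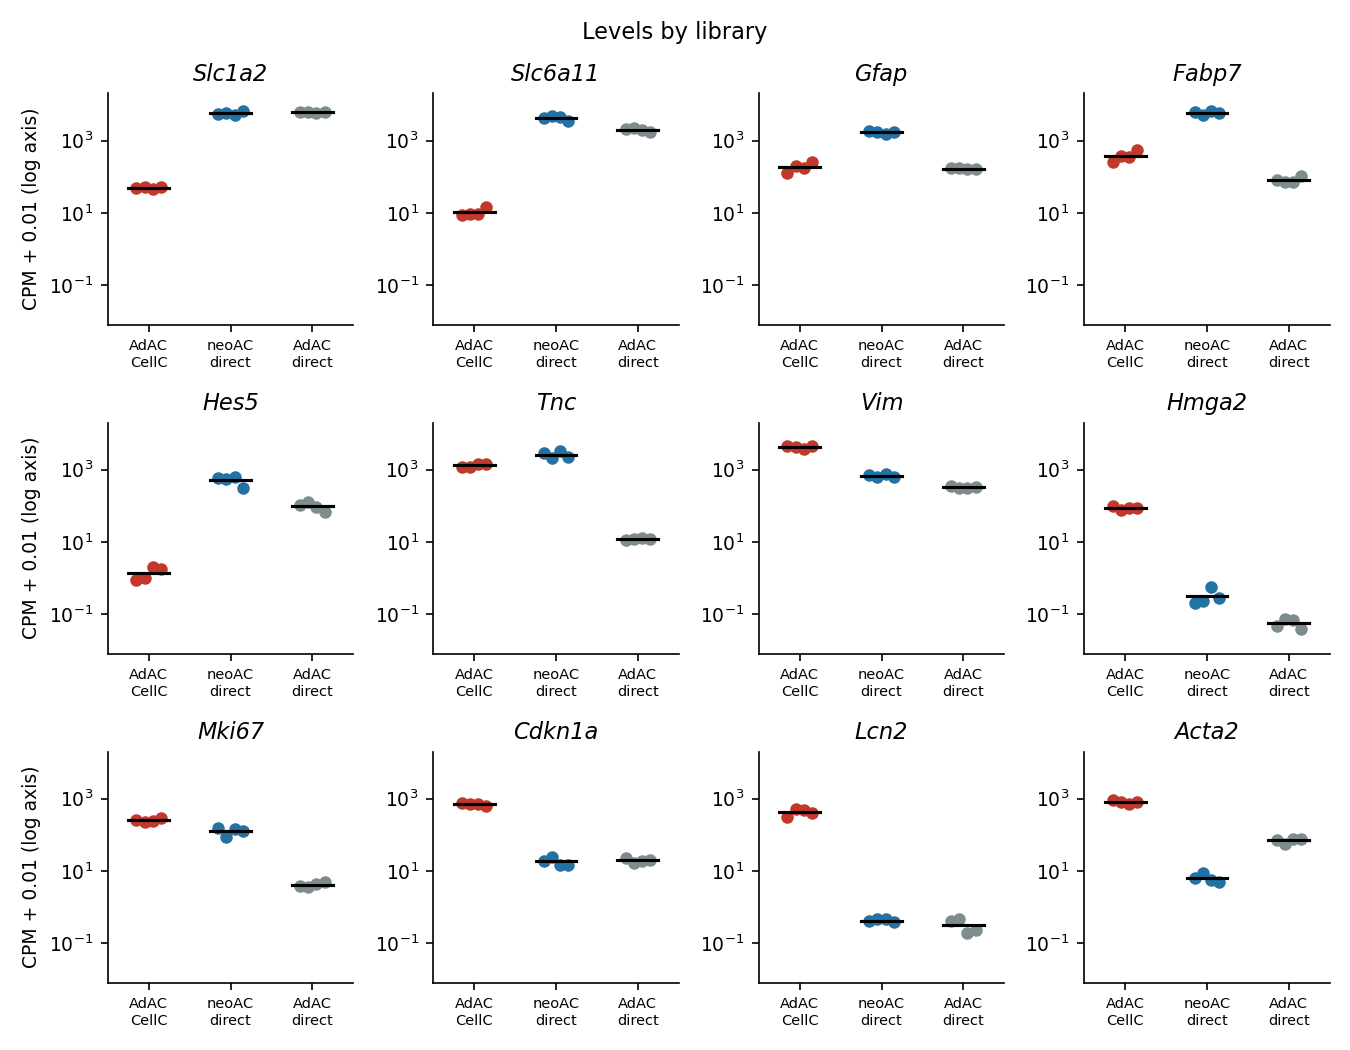
CPM (plus 0.01, log axis) of 12 genes in each library of AdAC CellC, neoAC direct and AdAC direct, with group means. Slc1a2, Slc6a11 and Hes5 are lowest in AdAC CellC, Vim, Hmga2, Cdkn1a, Lcn2 and Acta2 are highest there, and Tnc lies at 1153 to 1446 CPM in AdAC CellC between AdAC direct and neoAC direct.

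Fibrillar matrix, adhesion and contractile genes, which are typical of fibroblasts and smooth muscle, had the highest list median, 3.48 above that of all genes. Of 24 tested, 22 were higher in AdAC CellC than in neoAC direct, Ccn1 was lower and Col3a1 was not called, and all 24 were higher than in AdAC direct. Acta2, smooth muscle actin (ENSMUSG00000035783, chromosome 19 from 34241090 to 34255590), had 916, 799, 713 and 825 CPM in AdAC CellC, 6.18, 8.56, 5.44 and 4.86 CPM in neoAC direct and 70.5, 56.8, 75.9 and 75.7 CPM in AdAC direct (log2 fold change 7.01 with standard error 0.29, adjusted p by edgeR = 6.80e-16 against neoAC direct). The neonatal libraries were the lowest of the 3 groups. Lox, lysyl oxidase, which crosslinks collagen (chromosome 18 from 52516067 to 52529867), had 876, 841, 679 and 732 CPM against 2.83, 2.71, 2.96 and 5.12 CPM (log2 fold change 7.85 with standard error 0.34, adjusted p by edgeR = 3.96e-15). Cnn1, calponin of smooth muscle, had 91.4, 111, 80.0 and 116 CPM against 1.01, 0.720, 0.747 and 0.765 CPM.

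Fn1, fibronectin, had 2129, 1331, 2114 and 2011 CPM in AdAC CellC and 153, 294, 106 and 132 CPM in neoAC direct (log2 fold change 3.47 with standard error 0.28, adjusted p by edgeR = 1.88e-10), with replicate 2 the lowest cultured and the highest neonatal library. Ccn1, a matricellular target of YAP, had 694, 626, 615 and 700.3 CPM against 1176, 980.3, 921 and 931 CPM, and 64.8 ± 3.69 CPM in AdAC direct. It was thus 10.2-fold higher than in AdAC direct and 1.52-fold lower than in neoAC direct. Col3a1, a fibrillar collagen, had 58.9, 69.1, 102 and 122 CPM against 79.1, 72.2, 41.9 and 73.9 CPM (interval −0.03 to 0.82) and passed as higher without AdAC CellC replicate 1 (adjusted p = 0.0210) or replicate 2 (adjusted p = 0.0499). Markers of mural cells (smooth muscle and pericytes), none of them in this list, were lower in sum in AdAC CellC. Fibroblast and meningeal markers were higher in sum through Col1a1 and Col1a2, which both lists hold, and the others of that list were lower or not called. The part of these cells was not tested.

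Synapse-forming factors, which astrocytes secrete or use to shape synapses, were 5 higher and 8 lower of 13. Of all genes, 40.4% were higher and 30.5% lower. Thbs1, thrombospondin 1 (chromosome 2 from 118111876 to 118127133), had 3285, 2647, 2408 and 2479 CPM in AdAC CellC, 68.6, 46.3, 49.6 and 50.8 CPM in neoAC direct and 5.25, 3.40, 4.34 and 5.25 CPM in AdAC direct (log2 fold change 5.65 with standard error 0.20, adjusted p by edgeR = 8.08e-18 against neoAC direct). Thbs2 had 87.5 ± 15.7 against 15.2 ± 2.69 CPM, Sema3a, a guidance cue, 14.7 ± 0.949 against 3.21 ± 0.786 CPM, and Tgfb1 22.8 ± 4.46 against 7.28 ± 3.73 CPM. These 4 were above the neonatal level. Sparcl1, hevin, had 142, 168, 174 and 237 CPM against 7400.2, 8121, 7815 and 8005 CPM (log2 fold change −5.44 with standard error 0.16, adjusted p by edgeR = 2.35e-19). Wnt7a (9.61 ± 2.60 against 114 ± 12.8 CPM), the phagocytic receptor Mertk (14.7 ± 1.43 against 77.9 ± 2.72 CPM) and Tgfb2 (54.0 ± 3.54 against 162 ± 22.5 CPM) were lower as well. Mertk was highest in AdAC direct (293 ± 21.0 CPM) and Tgfb2 lowest there (30.6 ± 1.08 CPM).

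Cholesterol synthesis genes, with which astrocytes supply lipids to growing neurons, were lower in 17 of 19 cases, 1 was higher and Hsd17b7 was not called. Against AdAC direct, 10 were higher and 5 lower in AdAC CellC, beside 38.7% and 39.4% of all genes. In AdAC direct 18 were lower than in neoAC direct, beside 34.7% of all genes. Hmgcs1, HMG-CoA synthase (chromosome 13 from 119690379 to 119708260), had 373, 418, 389 and 389.7 CPM in AdAC CellC, 1524, 1493, 1464 and 1713 CPM in neoAC direct and 198, 205, 220.5 and 243 CPM in AdAC direct. The cultured libraries lay above the uncultured adult ones (1.81-fold) and 3.94-fold below the neonatal ones (log2 fold change −1.98 with standard error 0.14, adjusted p by edgeR = 2.86e-12 against neoAC direct). Later enzymes were lower too, Lss by 3.66 times (75.1 ± 4.03 against 275 ± 9.76 CPM) and Dhcr7 by 4.04 times (55.1 ± 3.43 against 223 ± 16.1 CPM), as was the regulator Srebf2 by 1.67 times. Hsd17b7 had 59.7 ± 3.76 and 51.7 ± 8.55 CPM (interval −0.09 to 0.51).
The promoter of Hmgcs1, the list member with the most counts, is shown because sterol synthesis promoters also use NF-Y, with CCAAT (both strands) in capitals, at chr13:119690101-119690350, plus strand.
Hmgcs1: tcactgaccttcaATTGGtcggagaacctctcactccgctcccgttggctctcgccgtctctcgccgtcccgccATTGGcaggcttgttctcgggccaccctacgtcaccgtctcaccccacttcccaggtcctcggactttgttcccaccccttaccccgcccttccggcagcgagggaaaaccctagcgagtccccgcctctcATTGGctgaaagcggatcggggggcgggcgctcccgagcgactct
It held 3 matches, 237, 176 and 45 bases before the RefSeq start, and 13 of the 13 list members with a RefSeq promoter held at least 1, against the 39.5% of tested genes given above.

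Glycolysis and lactate genes, which feed lactate to neurons, did not move together. Of 19 tested, 10 were higher, 4 lower and 5 not called (73.7% called against 70.9% of all genes). Forms of phosphofructokinase took opposite directions. Pfkp, the platelet form of phosphofructokinase, had 114, 126, 119 and 147 CPM against 24.1, 31.8, 22.6 and 29.3 CPM (log2 fold change 2.23 with standard error 0.17, adjusted p by edgeR = 4.27e-11), and Pfkm, the muscle form, 60.5, 68.4, 66.3 and 73.4 CPM against 424, 475, 465 and 379 CPM (log2 fold change −2.699 with standard error 0.09, adjusted p by edgeR = 9.46e-19). Hk2 (65.7 ± 4.2 against 20.02 ± 2.26 CPM), Eno2 (32.4 ± 4.94 against 12.6 ± 1.16 CPM) and Pkm (1019 ± 49.0 against 514 ± 76.1 CPM) were higher. Pygb, which breaks down glycogen (153 ± 7.54 against 1059 ± 74.7 CPM), and Ldhb, the lactate dehydrogenase subunit of lactate use (164 ± 18.1 against 449.5 ± 58.1 CPM), were lower. Gapdh (1323 ± 39.7 against 954 ± 180.3 CPM) and Eno1 (1157 ± 52.2 against 789.7 ± 100.1 CPM) were 1.39- and 1.46-fold higher, the former not without neoAC direct replicate 4 (adjusted p = 0.0610). Slc16a1, a lactate carrier, was 1.26-fold lower (edgeR adjusted p = 0.0364), which was lost without AdAC CellC replicates 1 or 3 or neoAC direct replicates 2 or 4 (adjusted p 0.0776 to 0.280).

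Motile cilium genes, of the beating cilia that ependymal cells carry, were 5 higher, 4 lower and 8 not called of 17, a share called of 52.9% against 70.9% of all genes. Foxj1, the master factor of motile cilia (chromosome 11 from 116330704 to 116335399), had 179, 248, 177 and 232 CPM in AdAC CellC, 144, 124, 97.6 and 94.2 CPM in neoAC direct and 427, 438, 396 and 402 CPM in AdAC direct (log2 fold change 0.86 with standard error 0.15, adjusted p by edgeR = 1.05e-05 against neoAC direct). Rsph1, of the radial spoke, had 34.0, 47.5, 28.6 and 37.3 CPM against 26.0, 19.2, 14.1 and 17.5 CPM, and Dnah11, a dynein heavy chain, Ak7 and Drc1 were 1.83-, 1.56- and 1.495-fold higher. Without neoAC direct replicate 1, 8 of the 17 were higher. All 5 of these differences were below 1.92-fold or equal to it. Ccno, which drives the multiplication of centrioles, had 1.87, 1.95, 1.57 and 2.76 CPM against 18.4, 12.8, 13.5 and 13.6 CPM (log2 fold change −2.84 with standard error 0.18, adjusted p by edgeR = 5.14e-13), and its partner Mcidas 0.0614, 0.146, 0.212 and 0.124 CPM against 5.43, 2.52, 2.68 and 3.96 CPM (log2 fold change −4.68 with standard error 0.32, adjusted p by edgeR = 1.60e-12). Dnaic1 and Hydin were 1.39- and 1.53-fold lower. Against AdAC direct, 15 of the 17 were lower in AdAC CellC, and 15 were higher in AdAC direct than in neoAC direct. Ependymal markers, 2 of which are in this list, summed to 239 to 338 CPM in AdAC CellC, 145 to 214 CPM in neoAC direct and 1250.0 to 1445 CPM in AdAC direct, and their part was not tested.

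Among protein-coding genes whose libraries did not overlap and whose higher mean reached 10 CPM, the 10 with the largest increase included Serpinb2, Elobl, Ivl, Cldn4, Shh, Lcn2, Fermt1, Pax2 and Ifi211. Serpinb2, the plasminogen activator inhibitor PAI-2 (chromosome 1 from 107511423 to 107535478), had 20.6, 16.6, 15.5 and 18.9 CPM in AdAC CellC and no count in any neoAC direct library, at least 187-fold higher against a floor of 3 counts in each library. Ivl, involucrin, which builds the envelope of keratinocytes, had 23.4, 20.1, 16.2 and 20.9 CPM and was at least 211-fold higher, and Cldn4, a claudin of epithelial tight junctions, had 22.6, 18.7, 54.2 and 24.6 CPM, at least 314-fold higher. Both are genes of epithelia. Cldn4 was highest in replicate 3, as was the sum of the epithelial or mesothelial markers, while Ivl was lowest there. Fermt1, kindlin 1 of epithelial cells, had 9.02, 8.34, 23.9 and 6.21 CPM, again highest in replicate 3 (at least 124-fold higher, and at least 82.2-fold without that library).

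Shh, the morphogen sonic hedgehog, had 124, 103, 81.9 and 94.9 CPM in AdAC CellC and 0.0325, 0.0831, 0.102 and 0.133 CPM in neoAC direct (log2 fold change 10.12 with standard error 0.47, adjusted p by edgeR = 4.95e-15). Pax2, a transcription factor of the kidney, eye and midbrain-hindbrain boundary, had 11.1, 9.56, 9.77 and 11.7 CPM and was at least 110.2-fold higher. Shh and Pax2 were above 9 CPM in every cultured library and below 0.2 CPM in every neonatal one. Elobl and Ifi211, an interferon-inducible gene of a family of close paralogs, were at least 115- and 105-fold higher. AdAC direct was at or below 0.5 CPM for each of these genes.

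The 10 with the largest decrease were Hbb-bs, Gabbr2, Gsg1l, Cntnap5b, St6gal2, Slc6a11, Hes5, Cldn10, Slc7a10 and Slc30a10. Gabbr2, a subunit of the GABA-B receptor (chromosome 4 from 46662305 to 46991873), had 0.8288, 1.05, 0.770 and 0.496 CPM in AdAC CellC, 413, 529.8, 477 and 397 CPM in neoAC direct and 185, 180.1, 179 and 176 CPM in AdAC direct (log2 fold change −9.16 with standard error 0.18, adjusted p by edgeR = 3.52e-22 against neoAC direct). Gsg1l, an auxiliary subunit of AMPA receptors, had 0.184, 0.496, 0.425 and 0.465 CPM against 210.4, 240.3, 259 and 162 CPM, with 4.42 ± 0.571 CPM in AdAC direct. St6gal2, a sialyltransferase, had 0.0921, 0.0291, 0.133 and 0.155 CPM against 41.0, 42.7, 41.4 and 54.9 CPM, and 1.21 ± 0.386 CPM in AdAC direct. Gsg1l and St6gal2 were thus already low in adult cells without culture, while Gabbr2 and Slc30a10, a manganese exporter (0.734 ± 0.199, 226 ± 30.0 and 102 ± 10.04 CPM in AdAC CellC, neoAC direct and AdAC direct), were not. Cntnap5b, of the contactin-associated family, was at the floor in AdAC CellC, at least 145-fold lower than in neoAC direct (12.8 ± 1.95 CPM). Hbb-bs, adult beta globin, was at the floor in AdAC CellC and at 12.2, 38.7, 5.23 and 11.4 CPM in neoAC direct, at least 191-fold lower (at least 109-fold without neoAC direct replicate 2), and cannot be told apart from its near-identical copy Hbb-bt where reads match both.

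Levels in culture were also read for the 10 genes with the largest fall and the 10 with the largest rise from neoAC direct to AdAC direct. Besides age, those 2 groups differ in dissociation kit, in the removal of red blood cells and debris, and in oligodendrocyte markers (sums of 288 to 364 and 14331 to 14893 CPM). Removal of meninges is stated for the pups only, and of olfactory bulb and cerebellum for AdAC direct and not the pups. The genes were chosen on those 2 groups, so their levels in AdAC CellC are a description without a test. The neonatal genes were Kcnj6, Cntnap5b, Tnc, Grm5, Tfap2c, Has2, Fstl5, Ptx3, Fabp7 and Veph1. Ptx3, also a member of the A2 reactive list, overlapped between AdAC CellC and neoAC direct (47.7 ± 8.39 against 48.1 ± 5.81 CPM). Tnc was at 1296 ± 161 against 2583 ± 532 CPM. Has2, a hyaluronan synthase, lay between, at 5.89, 4.96, 8.92 and 5.71 CPM in AdAC CellC, 42.7, 22.7, 36.9 and 43.0 CPM in neoAC direct and 0.248, 0.185, 0.267 and 0.536 CPM in AdAC direct. Grm5, the metabotropic glutamate receptor of young astrocytes (chromosome 7 from 87584168 to 88134907), had 7.21, 7.90, 6.48 and 10.4 CPM in AdAC CellC, 266, 253, 267 and 288 CPM in neoAC direct and 1.63, 2.44, 1.87 and 2.31 CPM in AdAC direct. Those 2 genes, with Fabp7 above and Veph1 (1.39 ± 0.187, 26.3 ± 3.68 and 0.385 ± 0.0343 CPM), were above the uncultured adult range and below the neonatal range in every cultured library.

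Kcnj6, a potassium channel, stayed low at 0.153, 0.175, 0.478 and 0.217 CPM in AdAC CellC, against 12.3, 8.81, 12.6 and 12.6 CPM in neoAC direct. Tfap2c, a transcription factor, had 0.131 ± 0.0482 CPM against 11.1 ± 1.15 CPM, and Fstl5 0.221 ± 0.0747 CPM against 11.6 ± 1.88 CPM, while Cntnap5b was at the floor in both adult groups. AdAC CellC and AdAC direct overlapped for Tfap2c and Fstl5. Of the 10 neonatal genes, the cultured adult cells thus had 2 within 1.99-fold of the neonatal mean, 4 in between and 4 below 0.5 CPM.

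The 10 adult genes were Tmem125, Mog, Tnni1, Opalin, Nipal4, Mobp, Etnppl, Cyp2j12, Mag and Fa2h. Mog, Opalin, Mobp and Mag are myelin genes of the oligodendrocyte marker list, and Fa2h makes lipids of myelin. Mobp (chromosome 9 from 120149707 to 120181484) had 356, 796, 921 and 759 CPM in AdAC CellC, 1.04, 1.33, 1.39 and 1.40 CPM in neoAC direct and 1638, 1344, 1583 and 1665 CPM in AdAC direct, and Mag 276, 637, 801 and 597 CPM, 2.41, 2.24, 1.90 and 2.13 CPM and 2253, 2523, 2482 and 2291 CPM. Cultured cells lay between the others for both, with replicate 1 lowest. Mog had 116 ± 45.1, 0.357 ± 0.145 and 615 ± 31.6 CPM in the same order of groups, Opalin 46.5 ± 16.3, 0.146 ± 0.0579 and 234 ± 19.7 CPM, and Fa2h 79.1 ± 29.1, 0.386 ± 0.156 and 427 ± 17.5 CPM.

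Etnppl, an enzyme of phosphoethanolamine breakdown that mature astrocytes express, was far below its uncultured adult level and 3.11-fold above the neonatal mean, with no overlap. It had 0.338, 0.437, 0.584 and 0.527 CPM in AdAC CellC, 0.0975, 0.277, 0.0679 and 0.133 CPM in neoAC direct and 233, 141, 157 and 189 CPM in AdAC direct. The neonatal values lay near the floor of 3 counts (0.0956 CPM). With a library left out, the log2 fold change against neoAC direct ran from 1.42 to 2.21. Tmem125 (19.3 ± 6.63, 0.0453 ± 0.0366 and 87.6 ± 4.32 CPM in AdAC CellC, neoAC direct and AdAC direct), Nipal4 (13.5 ± 3.23, 0.0289 ± 0.0392 and 46.7 ± 2.05 CPM), Tnni1 (7.83 ± 3.01, 0.0232 ± 0.0308 and 42.3 ± 2.699 CPM) and Cyp2j12, of a family of close paralogs (6.86 ± 1.86, 0.0248 ± 0.0318 and 32.3 ± 1.68 CPM), were at the floor in neoAC direct and in between in AdAC CellC. Oligodendrocyte markers summed to 3433 to 8613 CPM in AdAC CellC and 14331 to 14893 CPM in AdAC direct, and their part in the levels of these genes was not tested.

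**Figure D5:**
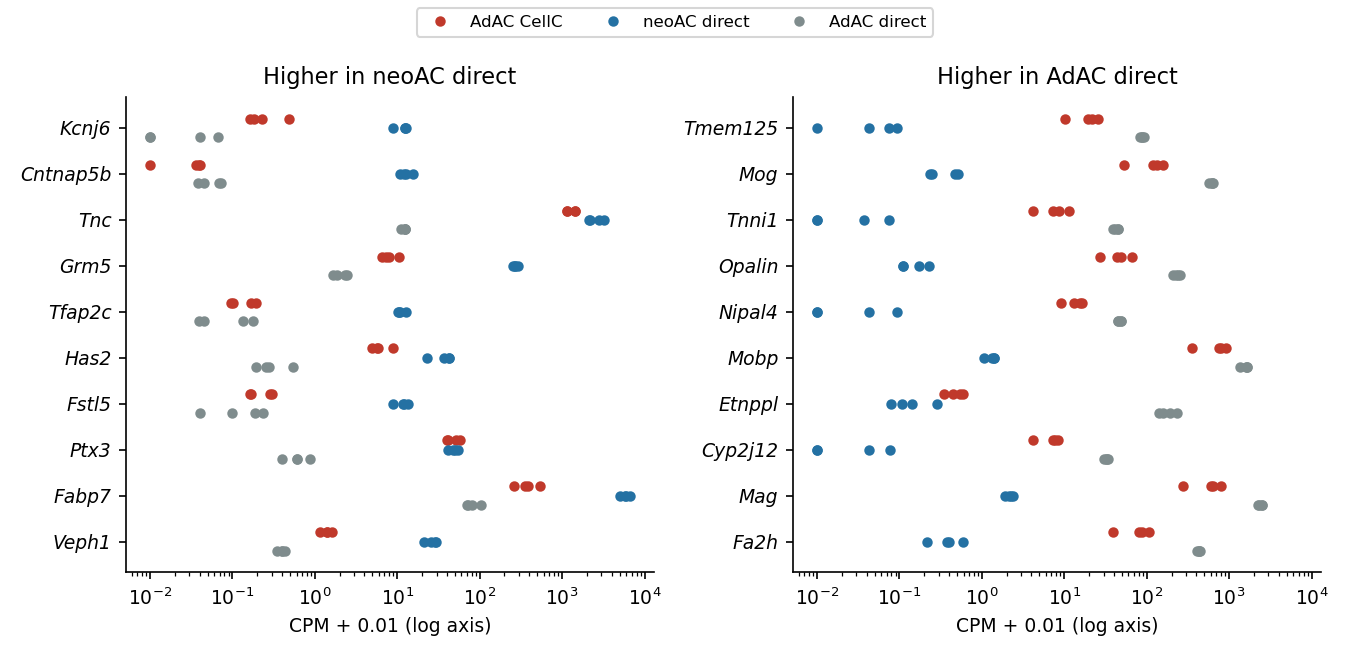
CPM (plus 0.01, log axis) of the 10 genes with the largest fall and the 10 with the largest rise from neoAC direct to AdAC direct, in each library of AdAC CellC, neoAC direct and AdAC direct. Ptx3 overlaps between AdAC CellC and neoAC direct, Tnc lies just below the neonatal libraries, and Etnppl in AdAC CellC lies just above neoAC direct, whereas the myelin genes lie between both other groups.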

How the data were processed

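Libraries of mRNA (TruSeq Stranded mRNA) were made from ACSA-2-selected mouse astrocytes, 4 libraries in each of 6 groups. The authors demultiplexed reads with bcl2fastq 2.20, aligned them to GRCm38 with STAR 2.7.3a, keeping reads with up to 20 alignments, and counted exon reads per gene with featureCounts and Gencode annotation. The deposited matrix holds these raw counts per gene (whole numbers, not normalized), and whether counting used strand is not stated. Because reads with several alignments may have been counted or dropped, genes with near-identical copies are uncertain. Positions are from Gencode vM21, in which 49412 of 49671 identifiers (99.48%) were found. Sex chromosome and mitochondrial genes, and a few other genes that the rule below would name, are not reported here. Depth was 30502488 to 37997368 counts in the 8 libraries compared, so that 3 counts, the floor used here, correspond to a group mean of 0.0881 CPM in AdAC CellC and 0.0956 CPM in neoAC direct. The floor covers counting error only.

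The tests used edgeR 4.0.16 under R 4.3.3 (TMM scaling, filterByExpr, robust quasi-likelihood test, 1 fit of all 6 groups), and p-values were adjusted by the Benjamini-Hochberg method over 19691 genes, of which 18914 autosomal genes are reported. The standard error of a log2 fold change was taken from the F statistic, and CPM were scaled by TMM. DESeq2 1.42.0 gave blind rlog counts for distances and an alternative test. On simulated counts of 18798 genes for AdAC CellC against neoAC direct, edgeR called 79 of 100 genes changed 2-fold and 96 of 100 changed 4-fold, and 7 unchanged genes. Only these genes were changed there, in both directions, whereas 70.9% of autosomal genes were called in the data. The simulation thus cannot give the error rate of the calls reported here. Replicates of a group differed by more than counting noise (chi-square per degree of freedom 9.03 to 55.5). Alternatives were other scaling, other filters, DESeq2, a fold threshold, only the 8 libraries with and without a replicate block, and each library left out in turn.

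The genes named are the first 10 called in each direction by log2 fold change whose libraries did not overlap and whose higher mean reached 10 CPM. Of each list, up to 4 members in each direction by the same conditions, the 2 with the most counts and members of small counts are named. The first 10 genes in each direction between neoAC direct and AdAC direct, by the same conditions, and 12 genes the study names complete the rule. Gene lists are from general knowledge, and members and lists were chosen with earlier results of these data known. Promoters are from RefSeq (GRCm38.p6), 250 bases before the start. Python 3.11.15 with pandas 2.3.3 and matplotlib 3.10.9 was used for motifs and figures.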

Additional observations from a re-analysis of the deposited data

Results flagged for a closer look

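In 30 of 357 groups of 4 libraries examined (8.4%, where chance gives about 1 in 20), the highest or lowest library stood apart from the other 3. Of these, 15 were in AdAC CellC and 15 in neoAC direct.

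In AdAC CellC, replicate 3 stood apart with the highest values of 3 epithelial genes and of a marker sum, while it was the lowest library for Ivl, also a gene of epithelia (16.2 CPM, others 20.1 to 23.4 CPM). It had 54.2 CPM for Cldn4 (18.7 to 24.6 CPM in the others), 23.9 CPM for Fermt1 (6.21 to 9.02 CPM), 15.6 CPM for Krt19 (9.62 to 10.1 CPM) and a sum of 201 CPM for the epithelial or mesothelial markers (90.2 to 103 CPM). Replicate 1 stood apart as highest for Mx1 (2.30 CPM, others 0.0797 to 0.291 CPM) and Agt (2.24 CPM, others 1.60 to 1.65 CPM), and as lowest for Peg3 (68.5 CPM, others 78.4 to 80.2 CPM). Replicate 2 was lowest for Fn1 (1331 CPM, others 2011 to 2129 CPM), Tgfb2 (48.7 CPM, others 55.1 to 56.2 CPM) and Arid3b (2.27 CPM, others 2.701 to 2.73 CPM). Replicate 4 was highest for Slc6a11 (14.7 CPM, others 8.56 to 9.46 CPM), Mycn (4.90 CPM, others 3.45 to 3.53 CPM) and Cdkn2c (57.2 CPM, others 44.1 to 45.8 CPM), and lowest for Cdkn1a (619 CPM, others 723 to 741 CPM) and Has3 (0.496 CPM, others 0.797 to 0.8288 CPM).

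In neoAC direct, replicate 2 was highest for Sox10 (6.81 CPM, others 1.60 to 2.13 CPM), Tgfb1 (12.8 CPM, others 4.88 to 6.15 CPM) and Cdkn2a (0.388 CPM, others 0.163 to 0.200 CPM). The same library was lowest for Kif11 (38.1 CPM, others 63.7 to 66.5 CPM), Cdc6 (4.54 CPM, others 5.69 to 5.88 CPM), Mest (90.7 CPM, others 109 to 112 CPM) and Kcnj6 (8.81 CPM, others 12.3 to 12.6 CPM). Its sums were the highest of the group for endothelial, erythroid, microglia, mural, oligodendrocyte, oligodendrocyte precursor, choroid plexus and epithelial or mesothelial markers. Its neuron and neuroblast sums were the lowest. Replicate 4 was highest for Lox (5.12 CPM, others 2.71 to 2.96 CPM), Slc30a10 (270.5 CPM, others 207 to 213 CPM), St6gal2 (54.9 CPM, others 41.0 to 42.7 CPM) and Mertk (82.0 CPM, others 76.1 to 77.0 CPM), and lowest for Nfix (404 CPM, others 533 to 554 CPM). Replicate 1 was highest for Ccno (18.4 CPM, others 12.8 to 13.6 CPM) and Cnn1 (1.01 CPM, others 0.720 to 0.765 CPM), and replicate 3 lowest for Igf2 (171 CPM, others 265 to 279 CPM).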

How the results depend on the processing

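Genes called higher numbered 6124 to 8679 and lower 4725 to 6908 under the alternatives that kept all libraries and set no fold threshold, and 7383 to 7697 and 5636 to 5715 when 1 library was left out. With a change over 1 on the log2 scale they numbered 4220 and 3186. The median log2 fold change over all genes was 0.16, 0.06 with DESeq2's size factors, 0.30 with library size alone and 0.02 with no filter, and higher genes made up 56.9%, 52.4%, 63.7% and 50.5% of calls. Replicate numbers did not pair libraries (correlations of deviations −0.0262, 0.0451, 0.0732 and −0.0229). Over the 8 libraries alone, a replicate block gave 6124 higher and 6001 lower against 6200 and 6181 without it.

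With at least 10 counts in every library, list medians relative to all genes were −4.13 (homeostatic), 0.74 (heterochronic), −0.37 (imprinted), 1.75 (A1) and −1.30 (cholesterol). With no filter they were −0.43 (imprinted) and 1.71 (A2), and with DESeq2 −0.43 and 1.71. With 1 library left out they ran from −1.75 to −1.49 (immature), −0.66 to −0.44 (imprinted), 1.24 to 1.35 (inhibitors), 1.5 to 2.16 (A1), 3.42 to 3.66 (fibrillar), −0.86 to −0.76 (synapse) and −1.36 to −1.24 (cholesterol). The motile cilium median ran from −0.0359 to 0.21 and was −0.0082 without AdAC CellC replicate 2 and −0.0359 without neoAC direct replicate 3. The first distance ratio (0.915 to 0.926 with a library left out) reversed to 1.01 with the 500 most variable genes, and the second (1.05 to 1.06) was 1.01 with unit variance. The cause of these shifts was not tested.

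Among the genes whose sign turned, Gnas was called under some alternatives and the others under none. Amigo2 was at −0.0221 with DESeq2's size factors, −0.0229 with its test, −0.072 with no filter, and −0.0616 and −0.0613 over the 8 libraries with and without the replicate block. Scaling by library size gave 0.0267 (Cdkn2c), 0.0992 (Cdkn2d), 0.0171 (Gnas), 0.0625 (Htra1) and 0.138 (Ptx3). Gins1 was at −0.0122 with no filter and −0.0018 over the 8 libraries, and Ptx3 at 0.0132 with at least 10 counts. With a library left out, ranges were −0.29 to 0.0103 (B3gnt5), −0.25 to 0.04 (Cdkn2c), −0.13 to 0.0297 (Cdkn2d) and −0.115 to 0.0627 (Ptx3). For all named genes, 1129 values kept direction and side of the threshold, 16 lost and 16 gained the call and 13 turned under the alternatives with all libraries, and 1345, 28, 4 and 7 with a library left out. Depth limits values at or below 3 counts in a library. Bounds are given only where every library of a group was at or below 3 counts. Fold changes without a bound can still rest on such libraries, as for Shh in neoAC direct. Leaving out a library for these bounds was added after seeing the data.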
